A study of Neurospora crassa with 5 samples.

Results

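Of the 8638 Neurospora crassa genes tested, 56 (0.648%) were higher in every library taken 2 h after crossing than in every uncrossed library by a set gap, and these 56 are described here. A gene was a member when the lowest of its 3 crossed libraries lay at least 0.8 above the highest of its 2 uncrossed libraries. The scale was log2 CPM, reads per gene relative to the library total, with a prior count of 2 and TMM scaling, for genes that passed a filter on low counts. The counts themselves chose the members, so crossed against uncrossed values are given as a description, and calls across all genes are printed only as background. Of the 56, 54 are protein-coding in the RefSeq gene table of assembly NC12, 1 is a ribosomal RNA gene and 1 a non-coding RNA gene. Only con-13, gh3-3 and cat-4 have a symbol there, and the remaining 53 are named by locus tag, with no product name in the sources used here.

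The crossed group held 3 libraries, replicates 1, 2 and 3. They came from 6-day protoperithecial cultures of the mat 1-2-1 mutant strain FGSC#4564, genotype mat a[m1]s-3B cyh-1, collected 2 h after conidia of the wild type FGSC#2489 were added. The uncrossed group held 2 libraries, replicates 1 and 3, of the same strain and age at time 0. No uncrossed library was taken at 2 h, so crossing and the elapsed 2 h with its handling cannot be told apart. Both groups thus carry the m1 allele of the mating-type gene and the cycloheximide resistance marker cyh-1. They also share the part of the genotype written s-3B, which is left as given, and the recipient is a single strain. Each library is the tissue of a separate plate, per the labels' protocols. In bulk RNA of this kind a larger number of cells of a type and more RNA per cell cannot be told apart, and the same holds for RNA of the added conidia and RNA made by the recipient, since no library of conidia alone was analysed here.

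In Neurospora the female partner forms protoperithecia, coiled hyphal bodies that send out trichogynes, thin hyphae that grow towards a cell of the opposite mating type. A conidium can act as that male cell, but it is first of all a dispersal spore, and hyphae form it in large numbers through a programme called conidiation. The con genes and eas are named for, or known from, that programme: eas encodes the hydrophobin of the rodlet layer that makes conidia repel water. Catalases break down hydrogen peroxide, and glycoside hydrolase family 3 holds beta-glucosidases, which release glucose from short glucans.

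Library totals ran from 25817200 to 39639683 counts. Ribosomal RNA genes took 19.3 to 34.0% of the counts in crossed libraries and 14.3 to 21.3% in uncrossed libraries. Of 8 female sexual tissue markers, 7 were tested, and their summed level was 4412 to 4765 CPM in crossed and 3363 to 8006 CPM in uncrossed libraries. Most of it was poi-2, and fmf-1 did not pass the filter. Another of them, the pheromone precursor gene mfa-1 (listed also as poi-1), had 29.7, 30.7 and 28.1 CPM in crossed replicates 1, 2 and 3, against 61.02 and 59.7 CPM in uncrossed replicates 1 and 3, so it was lower in every crossed library. It was the 1 such gene of the 7, since the groups overlapped in the other 6 and 0 were higher in all. Over all tested genes 20.6% were lower in all and 21.3% higher. The 5 markers of conidia, which are eas and the genes con-13, con-10, con-8 and con-6, summed to 35718, 64029 and 59585 CPM in crossed replicates 1, 2 and 3, against 15162 and 30531 CPM in uncrossed replicates 1 and 3. Most of this sum was eas in every library. The groups did not overlap in the sum, and its part in the results below was not tested.

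The 56 genes made up 2817, 3325 and 3300 CPM in crossed replicates 1, 2 and 3, against 812 and 1246 CPM in uncrossed replicates 1 and 3. Their median log2 fold change was 1.60, beside 0.00080 for all tested genes, and single values ran from 0.94 to 4.79. In 17 members the crossed mean was at least 4 times the uncrossed mean, and in 39 it was not. The gap was at least 2 in 4 members, between 1 and 2 in 23, and under 1 in 29. By any margin, 1840 tested genes (21.3%) were higher in all crossed libraries and 1781 (20.6%) lower in all. By the same gap of 0.8, 121 genes (1.4%) were lower in every crossed library.

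**Figure D1:**
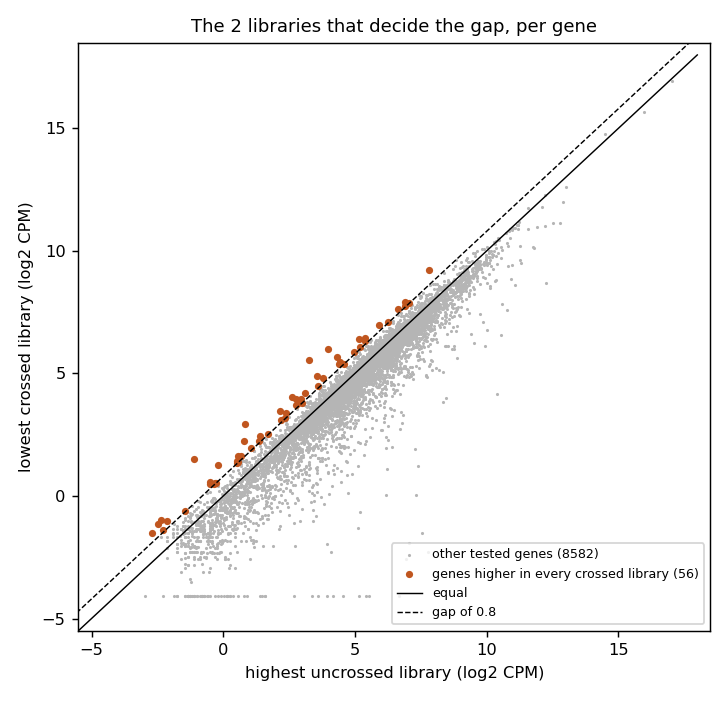
Each of the 8638 tested genes is placed by its highest uncrossed library (x axis) and its lowest crossed library (y axis), both in log2 CPM. The solid line marks equal values and the dashed line a gap of 0.8. The 56 members (orange) lie on or above the dashed line, and their mean level in crossed cultures ran from 0.353 to 622 CPM.

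edgeR's quasi-likelihood test, fitted on all genes with Benjamini-Hochberg adjustment, called 1 of the 56 members at an adjusted p of 0.05, where it called 0.0116% of all tested genes higher and 0.0347% lower. At an unadjusted p under 0.05 it counted 56 of 56, beside 10.3% of all tested genes. DESeq2 called 53 of 56, beside 5.51% of the genes with an adjusted p called higher and 6.29% called lower. The members were picked from this same contrast, so these counts say nothing further about them. The number of members depended on single libraries: it was 309 without crossed replicate 1, 107 without uncrossed replicate 1 and 390 without uncrossed replicate 3. It was 62 without crossed replicate 2 and 65 without crossed replicate 3. Filter and scaling aside, leaving out a library can only widen a gene's gap, so a rise was built in. In each case 54 to 56 of the 56 genes stayed members.

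**Figure D2:**
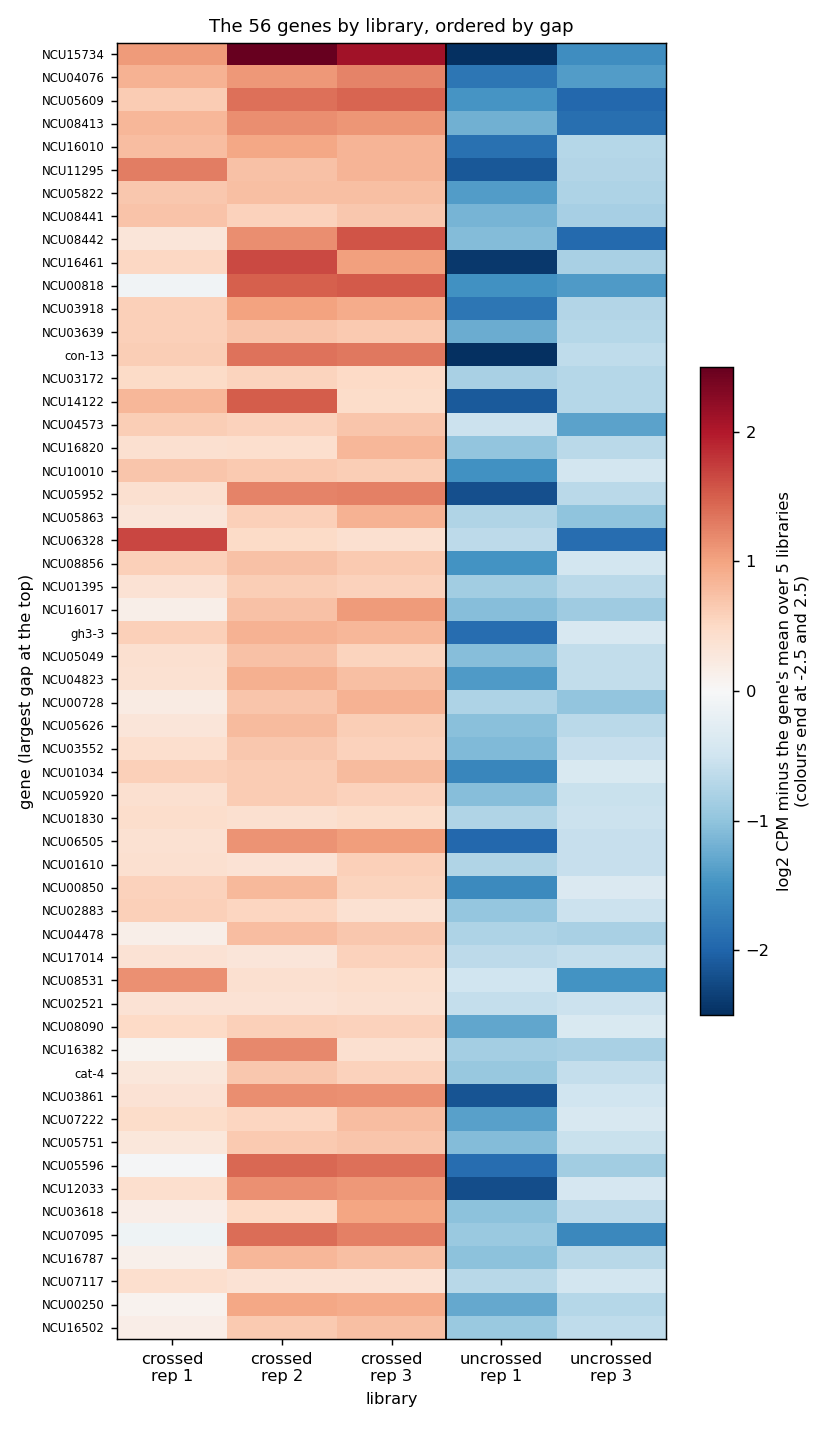
Each row is a member and each column a library. Colour gives log2 CPM minus the gene's own mean over the 5 libraries, and rows run from the largest gap (2.62, NCU15734) to the smallest (0.80, NCU16502). In many rows the left crossed column is paler than the other 2 crossed columns, and uncrossed replicate 3 is paler than uncrossed replicate 1.

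The protein-coding member with the largest gap (2.28) was NCU04076, on linkage group VI. It had 46.2, 53.6 and 59.6 CPM in crossed replicates 1, 2 and 3, against 7.18 and 9.46 CPM in uncrossed replicates 1 and 3. The lowest crossed library was several times the highest uncrossed one, and the libraries of each group lay close together. The means were 53.1 ± 6.71 CPM in crossed (SD, n = 3) and 8.32 ± 1.61 CPM in uncrossed cultures (SD, n = 2), which is a log2 fold change of 2.67 (SE 0.19). It was the single member past the threshold (adjusted p = 0.043 by edgeR), and the adjusted p was 0.387 without crossed replicate 2, 0.324 without crossed replicate 3 and 0.172 without uncrossed replicate 1.

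NCU05609, also on linkage group VI, had 7.57, 12.7 and 13.3 CPM in crossed replicates 1, 2 and 3, against 1.70 and 1.19 CPM in uncrossed replicates 1 and 3. NCU08413, on linkage group II, had 64.6, 81.04 and 78.1 CPM in crossed replicates 1, 2 and 3, against 15.8 and 9.72 CPM in uncrossed replicates 1 and 3. Both differed from most members in that uncrossed replicate 1 lay above uncrossed replicate 3. Their log2 fold changes were 2.95 (SE 0.37) for NCU05609 and 2.55 (SE 0.25) for NCU08413. The annotated span of NCU05609 overlaps that of NCU05608, and reads of the pair may not be separable, since how strand was used is a step not given in the sources used here.

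The member that drew the most reads was NCU08441, a gene of 6449 bp on linkage group II. It had 645, 590 and 630 CPM in crossed replicates 1, 2 and 3, against 177 and 222 CPM in uncrossed replicates 1 and 3. Its crossed libraries agreed within 0.13 on the log2 scale, and crossed replicate 1 was the highest of them. The crossed over uncrossed fold change was 1.64 on the log2 scale (SE 0.15). Per kb of annotated gene it averaged 96.4 CPM in crossed cultures, below NCU08090 at 195, NCU04823 at 130 and con-13 at 106 CPM per kb.

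Next to NCU08441 on the chromosome stands NCU08442, a gene of 378 bp, and the 2 were the only members that are immediate neighbours in NC12 gene order. NCU08442 had 16, 30 and 32 counts in crossed replicates 1, 2 and 3, against 4 and 2 counts in uncrossed replicates 1 and 3. Their annotated spans do not overlap.

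**Figure D3:**
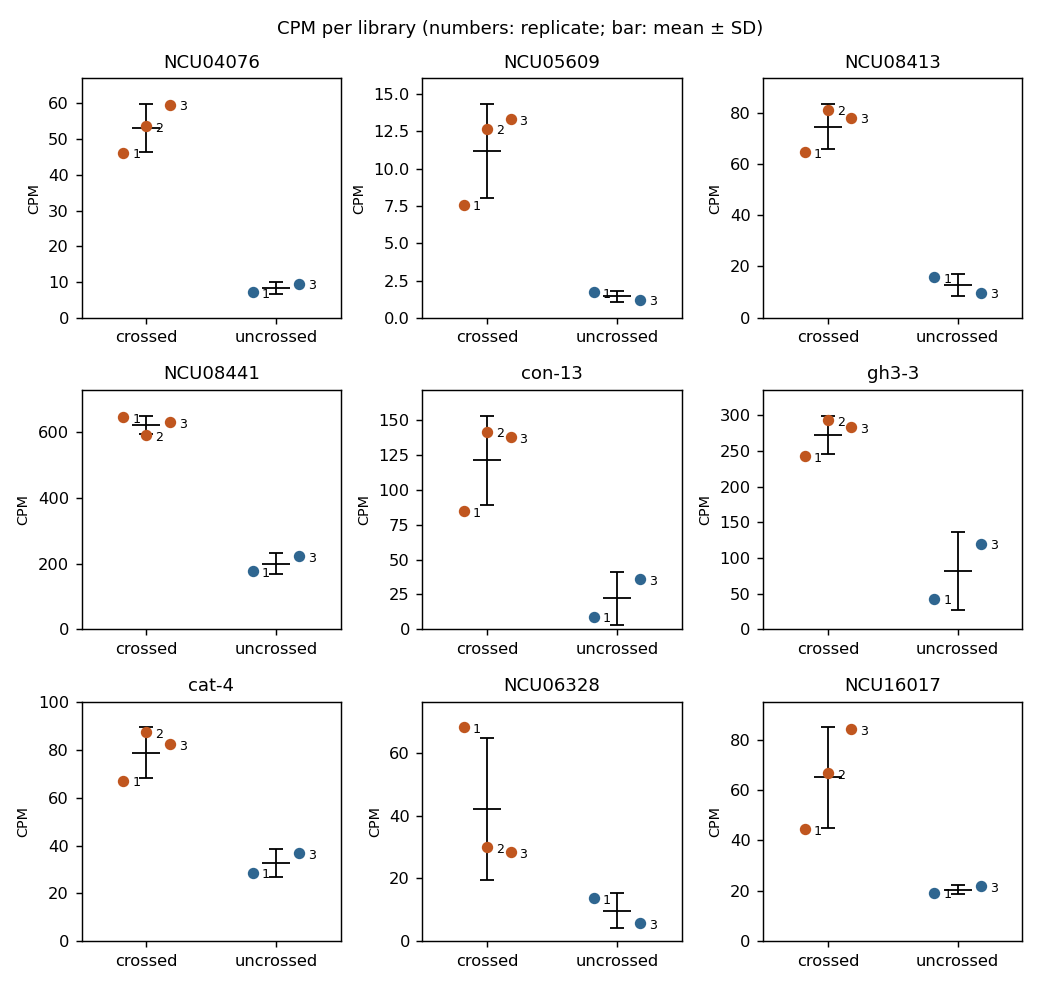
CPM per library of 9 members, each panel on its own linear axis that starts at 0, with crossed libraries at the left and uncrossed ones at the right. Numbers beside points are replicate numbers and bars give the mean ± SD (n = 3 crossed, n = 2 uncrossed). NCU04076 and NCU08441 show tight groups, con-13 and gh3-3 a wide uncrossed group, and NCU06328 a crossed replicate 1 well above the others.

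Among the members with a symbol, con-13 (NCU07324) belongs to the genes known for high expression during conidiation. It had 84.7, 141.9 and 137.7 CPM in crossed replicates 1, 2 and 3, against 8.88 and 35.8 CPM in uncrossed replicates 1 and 3. The groups did not overlap, but the uncrossed libraries themselves lay 2.00 apart on the log2 scale. The means were 121.4 ± 31.9 CPM in crossed (SD, n = 3) and 22.4 ± 19.1 CPM in uncrossed cultures (SD, n = 2). On the log2 scale the fold change was 2.43 (SE 0.63), and it was 1.76 without uncrossed replicate 1 and 3.77 without uncrossed replicate 3. Its neighbour con-10 (NCU07325) was no member: it had 485, 1194 and 1048 CPM in crossed replicates 1, 2 and 3, against 521 and 497 CPM in uncrossed replicates 1 and 3, so that crossed replicate 1 lay below both uncrossed libraries.

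The gene gh3-3 (NCU08755), of glycoside hydrolase family 3, had 242, 293 and 283 CPM in crossed replicates 1, 2 and 3, against 42.6 and 119.99 CPM in uncrossed replicates 1 and 3. The crossed libraries were close to each other and the uncrossed ones were not. Its log2 fold change was 1.75 (SE 0.45), and it was 1.18 without uncrossed replicate 1 and 2.68 without uncrossed replicate 3. Of the 8 tested genes with a gh3 symbol, a family looked up after gh3-3 had been seen, gh3-3 was the 1 member, and in the other 7 the groups overlapped, where 0.648% of all tested genes were members and 21.3% were higher and 20.6% lower without overlap. The median log2 fold change of the 8 was -0.26.

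The catalase gene cat-4 (NCU05169, synonym ctt-1) had 67.02, 87.5 and 82.4 CPM in crossed replicates 1, 2 and 3, against 28.7 and 36.7 CPM in uncrossed replicates 1 and 3. Every crossed library was above both uncrossed ones, and the spread inside each group was small beside that distance. Its log2 fold change was 1.27 (SE 0.18). The 4 catalase genes with a cat symbol did not share a direction. The gene cat-1, which encodes the catalase abundant in conidia, had 276, 400 and 399 CPM in crossed replicates 1, 2 and 3, against 142.5 and 244 CPM in uncrossed replicates 1 and 3. The gene cat-3, which encodes a catalase of growing hyphae, had 82.1, 17.2 and 15.9 CPM in crossed replicates 1, 2 and 3, against 351 and 172 CPM in uncrossed replicates 1 and 3. The gene cat-2, for a catalase-peroxidase, also had all crossed libraries (283, 213 and 219 CPM) below both uncrossed ones (519 and 352 CPM).

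Of 8 lists of conidiation, carotenoid and light, clock-controlled, heat shock, reactive oxygen, reserve carbohydrate, hyphal fusion and sexual development genes, 80 genes were tested and 2 (2.5%) were members, con-13 and cat-4, beside 0.648% of all tested genes. No gene of these lists passed the threshold of edgeR in either direction. In the conidiation list, 7 of the 10 genes were higher in all crossed libraries, 0 were lower in all, beside 21.3% higher and 20.6% lower over all tested genes, and the median log2 fold change was 1.18. All 5 conidial markers are on this list. The hydrophobin gene eas had 27897, 47303 and 44024 CPM in crossed replicates 1, 2 and 3, against 9197 and 22810 CPM in uncrossed replicates 1 and 3. The gene con-6 had 4947, 12031 and 11122 CPM in crossed replicates 1, 2 and 3, against 3483 and 4788 CPM in uncrossed replicates 1 and 3. Both were higher in all crossed libraries, with gaps of 0.29 and 0.05, while con-8 overlapped (2304 to 3358 CPM in crossed and 1953 to 2399 CPM in uncrossed libraries). The gene fl, for a transcription factor required to form conidiophores, had 277, 342 and 336 CPM in crossed replicates 1, 2 and 3, against 101 and 181 CPM in uncrossed replicates 1 and 3 (gap 0.62). The gene acon-3, needed for the constriction chains from which conidia form, had 68.9, 124.2 and 128.6 CPM in crossed replicates 1, 2 and 3, against 15.2 and 45.6 CPM in uncrossed replicates 1 and 3 (gap 0.60). The conidial separation genes csp-2 and csp-1 had gaps of 0.52 and 0.37. The groups overlapped in rca-1, with 92.2, 130.6 and 134.5 CPM in crossed replicates 1, 2 and 3, against 134.4 and 137.6 CPM in uncrossed replicates 1 and 3. Its log2 fold change was -0.19. DESeq2 called 7 of the 10 genes higher, beside 5.51% of all genes with an adjusted p.

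The other lists were mixed, and their counts stand beside 21.3% of all tested genes that were higher in all crossed libraries, 20.6% that were lower in all, 5.51% called higher by DESeq2 and 6.29% called lower. Of 17 carotenoid and light genes, 7 were higher in all crossed libraries and 4 lower in all. The highest gap there was 0.75, in al-3, which encodes the geranylgeranyl diphosphate synthase of carotenoid synthesis. It had 554, 634 and 621 CPM in crossed replicates 1, 2 and 3, against 261 and 330 CPM in uncrossed replicates 1 and 3. Of 15 hyphal fusion genes 1 was higher in all crossed libraries and 7 lower in all, and of 8 heat shock genes 1 was higher and 4 lower. Of the remaining lists, the clock-controlled genes had 4 of 10 higher and 0 lower, the reactive oxygen genes 2 of 9 higher and 3 lower, the reserve carbohydrate genes 1 of 4 higher and 0 lower, and the sexual development genes 0 of 9 higher and 2 lower, all without overlap. DESeq2 called 3 clock-controlled genes higher, 2 reactive oxygen genes higher and 2 lower, 4 hyphal fusion genes lower, 1 carotenoid and light gene higher and 1 lower, and 1 heat shock and 1 sexual development gene lower.

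**Figure D4:**
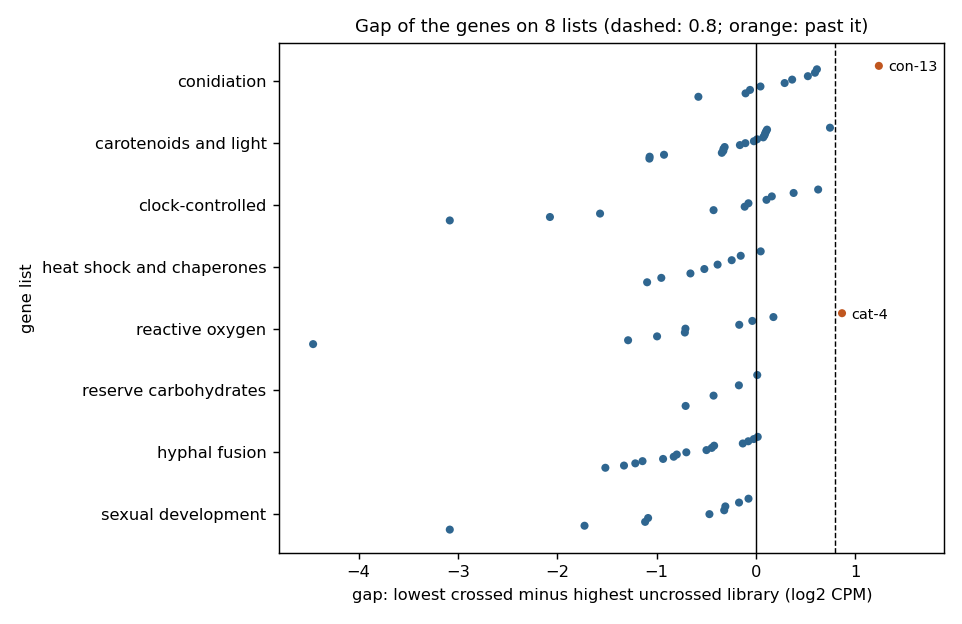
The gap between the lowest crossed and the highest uncrossed library, in log2 CPM, for each tested gene on the 8 lists. The solid line is at 0 and the dashed line at 0.8, and orange points are members. Only con-13 (1.24) and cat-4 (0.87) pass the dashed line.

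The members differed in how the libraries were ordered inside each group. Crossed replicate 1 was the lowest crossed library in 42 of 56 members (75%), beside 44.2% of all tested genes. Uncrossed replicate 3 was above uncrossed replicate 1 in 46 (82.1%), beside 50.6%. In 35 members (62.5%) the libraries stood in the order uncrossed replicate 1, uncrossed replicate 3, crossed replicate 1, then crossed replicates 2 and 3, and 11.3% of all tested genes had that order. Only genes higher in all crossed libraries can have that order, so the 11.3% is not a like comparison. Among the 1784 genes that were higher in all crossed libraries by less than the gap, 52.9% had that order. Of those 1784 genes, 66.8% had crossed replicate 1 lowest in its group and 76.8% had uncrossed replicate 3 above uncrossed replicate 1. The summed conidial markers given above, mostly eas, stood in the order of those 35 members, as did eas, con-6 and con-13 singly. The genes con-10 and con-8 did not. In crossed replicate 1 con-10 had 485 CPM, against 521 CPM in uncrossed replicate 1. In crossed replicate 1 con-8 had 2304 CPM, against 2399 CPM in uncrossed replicate 3. In the order of those 35 members replicate 1 is the lowest library of both groups, and con-13 is itself a member. The part of these markers, or of replicate number, in this result was not tested.

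**Figure D5:**
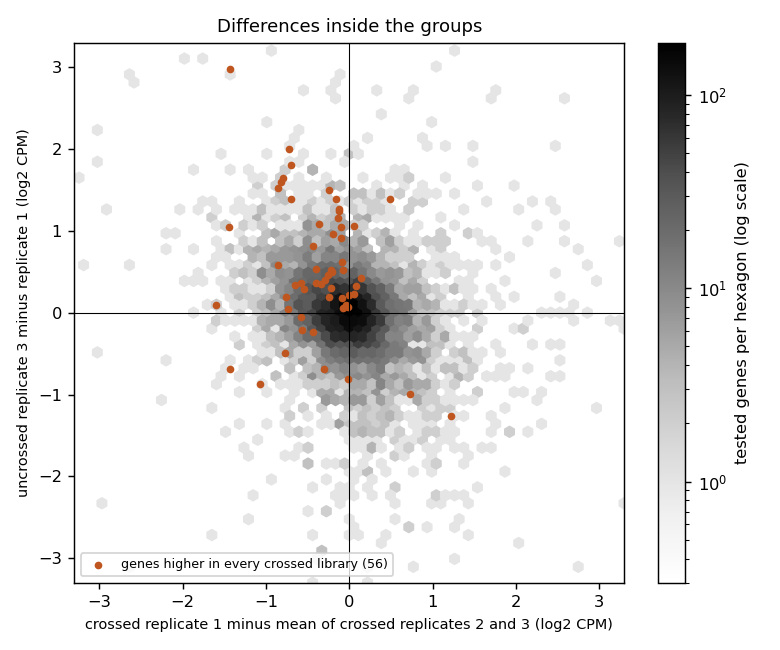
The difference of crossed replicate 1 from the mean of crossed replicates 2 and 3 (x axis) and of uncrossed replicate 3 from uncrossed replicate 1 (y axis), both in log2 CPM, for the tested genes within the axes (grey; 45 lie outside) and the 56 members (orange). Most members fall at the upper left, with medians of -0.27 on the x axis and 0.41 on the y axis.

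In 16 members (28.6%) the crossed libraries agreed within 0.25 on the log2 scale. The same held for 43.9% of all tested genes and 56.4% of the 1784 genes higher by less than the gap. NCU02521 had 22.4, 22.2 and 23.1 CPM in crossed replicates 1, 2 and 3, against 11.5 and 12.04 CPM in uncrossed replicates 1 and 3. NCU03172 was alike, with 15.6, 16.4 and 15.7 CPM in crossed replicates 1, 2 and 3, against 6.36 and 6.81 CPM in uncrossed replicates 1 and 3. These genes had small spreads in both groups and small fold changes, with log2 values of 0.94 (SE 0.12) for NCU02521 and 1.27 (SE 0.14) for NCU03172. NCU05822, on linkage group VII, had 16.5, 17.4 and 17.5 CPM in crossed replicates 1, 2 and 3, against 3.88 and 5.99 CPM in uncrossed replicates 1 and 3. NCU01830, NCU07117, NCU10010, NCU05822 and NCU03639 also had crossed libraries within 0.10 of each other, and this group was singled out after its values had been seen.

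In 20 members (35.7%) crossed replicate 1 was at least 0.5 below the mean of the other 2 crossed libraries. The same held for 10.9% of all tested genes and 14.1% of the 1784 genes higher by less than the gap. NCU00818, where that difference was largest, had 11.1, 33.4 and 34.1 CPM in crossed replicates 1, 2 and 3, against 4.08 and 4.35 CPM in uncrossed replicates 1 and 3. NCU05596 had 5.78, 16.2 and 15.4 CPM in crossed replicates 1, 2 and 3, against 1.53 and 3.22 CPM in uncrossed replicates 1 and 3. For both, crossed replicate 1 was nearer to the uncrossed libraries than to the other crossed ones in CPM. NCU03861, with 138, 242 and 239 CPM in crossed replicates 1, 2 and 3, against 24.3 and 76.2 CPM in uncrossed replicates 1 and 3, combined a low crossed replicate 1 with a high uncrossed replicate 3. In 17 members (30.4%) uncrossed replicate 3 was at least 1 above uncrossed replicate 1, beside 3.46% of all tested genes and 4.6% of those 1784 genes.

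NCU06328 and NCU08531 ran against that order, since crossed replicate 1 was at least 0.5 above the mean of the other crossed libraries. They are 3.57% of the members. Such a difference was found in 10% of all tested genes and in 0.897% of the 1784 genes higher by less than the gap. NCU06328, on linkage group IV, had 68.3, 29.9 and 28.4 CPM in crossed replicates 1, 2 and 3, against 13.7 and 5.68 CPM in uncrossed replicates 1 and 3. NCU08531, on linkage group III, had 7.88, 4.66 and 4.78 CPM in crossed replicates 1, 2 and 3, against 2.48 and 1.22 CPM in uncrossed replicates 1 and 3. In both genes replicate 1 was the highest library of its group. NCU00818, NCU05596, NCU06328 and NCU08531 were named after their values had been seen.

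By reads in the crossed cultures, 9 members averaged over 100 CPM, 25 between 10 and 100, 17 between 1 and 10, and 5 under 1 CPM. The median was 14.2 CPM, beside 35.8 CPM for all tested genes, and the median annotated length was 1855 bp, beside 2281 bp. Those over 100 CPM were NCU08441, gh3-3, con-13, NCU04823, NCU07117, NCU08090, NCU03861, NCU01395 and NCU06505. NCU04823 had 199, 280 and 257 CPM in crossed replicates 1, 2 and 3, against 56.6 and 99.4 CPM in uncrossed replicates 1 and 3. NCU07117 had 245, 235 and 237 CPM in crossed replicates 1, 2 and 3, against 114 and 133 CPM in uncrossed replicates 1 and 3. NCU07117 was near the edge of the rule, its log2 fold change being 0.95 (SE 0.12), and its libraries were among the most even. NCU01395 had 124.5, 148.5 and 145.4 CPM in crossed replicates 1, 2 and 3, against 53.2 and 60.7 CPM in uncrossed replicates 1 and 3, and its groups lay well apart. NCU06505, on linkage group III, had 80.1, 134 and 127 CPM in crossed replicates 1, 2 and 3, against 15.8 and 41.6 CPM in uncrossed replicates 1 and 3, with crossed replicate 1 low in its group and uncrossed replicate 3 high in its own.

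Few reads limited the lowest members. In 10 of the 56 the exact 95% Poisson intervals of the lowest crossed and the highest uncrossed library overlapped, among them all 5 under 1 CPM, and none of the 10 averaged over 2.11 CPM. NCU16461 had 14, 32 and 16 counts in crossed replicates 1, 2 and 3, against 0 and 5 counts in uncrossed replicates 1 and 3. The non-coding RNA gene NCU14122 had 14, 23 and 8 counts in crossed replicates 1, 2 and 3, against 0 and 4 counts in uncrossed replicates 1 and 3. By the floor of 3 counts used here for a count of 0, which is separate from those intervals, uncrossed replicate 1 allows up to 0.102 CPM. For genes with overlapping intervals the size of the gap is uncertain at this depth. Overlap of intervals is not itself a test of a difference between the deciding libraries. NCU11295, with 3.45, 2.33 and 2.56 CPM in crossed replicates 1, 2 and 3, against 0.272 and 0.812 CPM in uncrossed replicates 1 and 3, was a low gene whose intervals did not overlap.

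The largest gap of all, 2.62, was that of the ribosomal RNA gene NCU15734, on unplaced sequence. It had 2.80, 10.2 and 5.77 CPM in crossed replicates 1, 2 and 3, against 0 and 0.406 CPM in uncrossed replicates 1 and 3. Ribosomal RNA genes exist in near-identical copies, and reads could be split among them in counting, so this value is uncertain. Its annotated span also overlaps NCU15799, NCU17396 and NCU15801. Of the 16 ribosomal RNA genes tested it was the 1 that was higher in every crossed library, while 1 was lower in every crossed library and 14 overlapped, beside 21.3% higher and 20.6% lower over all tested genes. The share of all counts in ribosomal RNA genes, given above, overlapped between the groups, and its part in this value was not tested.

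Of 26 tested protein-coding genes of the mitochondrial genome, 2 were members, beside 0.648% of all tested genes. In all crossed libraries 8 of the 26 were higher and 0 lower, beside 21.3% and 20.6% of all tested genes. NCU16017 had 44.3, 66.7 and 84.1 CPM in crossed replicates 1, 2 and 3, against 19.1 and 21.7 CPM in uncrossed replicates 1 and 3. NCU16010 had 4.74, 5.44 and 5.001 CPM in crossed replicates 1, 2 and 3, against 0.715 and 1.67 CPM in uncrossed replicates 1 and 3. Both spans overlap other annotated genes, NCU16016 for NCU16017, and NCU16008, NCU16011 and NCU16012 for NCU16010, so their reads may not be separable. In all, 11 members overlap another annotated gene.

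By the gene order of NC12, linkage group VI held 13 of the 56 members (23.2%), beside 9.89% of all tested genes. Linkage group I held 9 members (16.1%), beside 25% of the tested genes, and the other linkage groups held 4 to 8 members each. Genes next to members were also counted. Of 76 tested neighbours that were no members and whose span did not overlap the member, 30 (39.5%) were higher in all crossed libraries, beside 21.3% of all tested genes, and 7 (9.21%) had a gap of at least 0.5, beside 1.99%. On linkage group I the member NCU00850 stood in a run of 4 consecutive genes with gaps of at least 0.5, with NCU00851, NCU00849 and NCU00848. NCU00848 carried most of the reads of that run, with 140, 230.2 and 228 CPM in crossed replicates 1, 2 and 3, against 48.6 and 86.4 CPM in uncrossed replicates 1 and 3. NCU00850 had 3.90, 4.63 and 3.87 CPM in crossed replicates 1, 2 and 3, against 0.817 and 2.01 CPM in uncrossed replicates 1 and 3, and its span overlaps that of NCU00849. NCU08090 had 217, 234 and 230.2 CPM in crossed replicates 1, 2 and 3, against 62.7 and 118 CPM in uncrossed replicates 1 and 3. It shares its span with NCU16306, which had a gap of 0.76, and their counts may come from the same reads.

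At the edge of the rule, the members just inside were NCU16502 (gap 0.80), NCU00250 (0.81) and NCU07117 (0.82). NCU00250 had 41.5, 76.1 and 74.2 CPM in crossed replicates 1, 2 and 3, against 15.9 and 23.7 CPM in uncrossed replicates 1 and 3. NCU16502 had 13.97, 19.8 and 21.2 CPM in crossed replicates 1, 2 and 3, against 6.53 and 7.98 CPM in uncrossed replicates 1 and 3. The genes that missed the gap by least were NCU01968 (0.795), NCU04163 (0.79) and NCU04616 (0.78). NCU01968 had 57.2, 69.1 and 71.7 CPM in crossed replicates 1, 2 and 3, against 31.3 and 32.9 CPM in uncrossed replicates 1 and 3. NCU04163 had 4.71, 8.27 and 8.40 CPM in crossed replicates 1, 2 and 3, against 0.953 and 2.70 CPM in uncrossed replicates 1 and 3. NCU04616 had 25, 34 and 43 counts in crossed replicates 1, 2 and 3, against 4 and 16 counts in uncrossed replicates 1 and 3. In all 3 genes the groups did not overlap.

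In the authors' deposited table all 56 members have a ratio of crossed to uncrossed above 1, between 1.63 and 16.2 with a median of 2.54. The median ratio over all tested genes in the authors' deposited table was 0.867. The intervals of both stages lay apart for 56 of 56 members in the authors' deposited table, which has intervals apart and higher in crossed cultures for 16.4% of the tested genes it covers. For NCU04076 the authors' deposited table gives 5.37, for con-13 4.16, for gh3-3 2.66 and for cat-4 2.02. It describes the same experiment, the libraries behind it are not listed in it, and it is not taken as an independent measurement.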

How the data were processed

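Stranded paired-end libraries were made of total RNA, per the labels' protocols. The authors deposited raw counts per gene for 5 libraries. CASAVA 1.8.2, fastp, HISAT2 2.1.0 and StringTie 1.3.3b are named, with no role, in the submitters' processing notes, while build, gene models and strand setting were not given in the sources used here. The authors' deposited table of ratios gives relative expression per stage with limits, per the file headers.

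One row with 6 values for 5 columns was left out, leaving 10591 genes, of which 10590 matched NC12 by locus tag. Genes were filtered with filterByExpr by group and scaled by TMM (edgeR 4.0.16, R 4.3.3). CPM use the TMM-scaled library size. All 8638 genes were fitted by group alone with edgeR's quasi-likelihood test (two-sided, Benjamini-Hochberg). Standard errors come from its F statistic. DESeq2 1.42.0 and limma 3.58.1 (voom) were alternatives. The fit was checked on simulated data with a single size of change, ample counts in the changed genes and independent libraries. That check does not cover smaller changes, genes with few counts or libraries that share a replicate effect. A count of 3 corresponds to 0.0717 to 0.110 CPM. Intervals and floors cover counting error only.

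Members and lists were chosen with earlier results of these data known. Named genes were the 10 largest gaps, the 8 highest crossed means, members with a symbol or on a list, the 3 genes on each side of the threshold, and the conidial markers. Other genes in the text, fixed lists aside, were chosen after their values were seen. What the limits in the authors' deposited table include is a detail without a source here.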

Additional observations from a re-analysis of the deposited data

How the results depend on the processing

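The number of members was within 1.5 times of 56 with DESeq2 size factors, plain library sizes, unfiltered genes, a minimum of 1 CPM, prior counts of 0.5 and 5, and without ribosomal RNA genes (45 to 68, with 42 to 56 of the 56 genes among them). It was 172 with a gap of 0.5 and 27 with a gap of 1. Leaving out each library in turn, which loosens the rule, gave 62 to 390. Of the members, DESeq2 called 53, and edgeR without each library in turn called 0 to 30. It called 0 when crossed replicate 2, crossed replicate 3 or uncrossed replicate 1 was left out, 18 when uncrossed replicate 3 was, and 30 when crossed replicate 1 was. The median log2 fold change of the members was 1.38 to 1.88 over the fits that leave out a library, and 1.40 with plain library sizes, where the median of all tested genes was -0.21. For these, the cause was not tested. A lone uncrossed library was taken to vary as much as crossed ones do.

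With the replicate number as a block, edgeR called 26 of the 56 members and 1.5% of all tested genes higher. Same-numbered libraries deviated from their group means together across genes (r = 0.257 for number 1 and 0.224 for number 3). With 2 uncrossed libraries, their deviations are equal and opposite, so these values are not independent of each other. Number 2 occurs in crossed cultures alone, and no label says what is shared under a number, so the libraries are taken to share only a number. Of 243 alternative values for the 27 named genes, 0 turned in sign, 60 gained and 3 lost a call, the 3 being those of NCU04076. Where the groups do not overlap, as in all named genes but con-8 and con-10, the sign was nearly fixed beforehand. The count of 0 turned signs is therefore no test of these genes. Depth limits the 10 members whose counting intervals overlap.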

Other observations

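Of the 1953 genes that did not pass the filter, 16 had counts in all 3 crossed libraries and 0 in both uncrossed libraries. The highest single count among them was 17, in NCU04691, which had 17, 8 and 8 counts in crossed replicates 1, 2 and 3. NCU05679 had 7, 12 and 10 counts and NCU07091 had 4, 8 and 10 counts in the same libraries. The reverse, counts in both uncrossed libraries and 0 in all 3 crossed libraries, was found in 24 genes. These 3 genes were named after their values had been seen, and no test was made.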
